A study of Mus musculus with 12 samples.

Results

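A group of 10 genes best known from T and natural killer (NK) cells was followed in blood progenitors of the fetal or newborn mouse liver. They were the adapter Trat1, the cytotoxic granule genes Gzmb, Gzma and Prf1, and the receptor genes Cd3e, Cd27 and Il2rb. The others were the transcription factor genes Gata3 and Tcf7 and the kinase gene Lck. The genes were listed by name, and a gene was measured where the platform annotation of the Affymetrix MG430 v2 array gave a probe set (a group of short probes read as 1 value) that symbol alone. Of the 10 genes, 8 were measured, by 11 of the 45037 probe sets tested. Tcf7 and Lck had no probe set under that rule and were not analysed here. Trat1, Prf1 and Il2rb had 2 probe sets each, of which the one with the higher mean over the arrays led and the other served as a check.

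The 12 arrays fell into 4 groups of 3, ST-HSC of KI and of WT mice and GMP of KI and of WT mice. KI mice carried the Q202L substitution in both copies of PU.1, knocked into the gene itself, so that every cell carried it. PU.1, encoded by Spi1, is an ETS family transcription factor of myeloid and B cell development, and the Q202L substitution was made to disturb its contact with the AP-1 protein c-Jun. WT mice were littermates. The sample records give newborn liver, whereas the study describes the sorted cells as taken from the fetal liver of embryos. The records name the strain C57Bl/6, where the reporting summary of the study names a mixed strain background. ST-HSC were short-term hematopoietic stem cells, sorted as lineage-negative c-kit+ Sca-1+ CD150- cells. The records give the gate as CD48+, whereas the methods of the study give CD48-. The Cd48 value was 11.84 in KI ST-HSC and 11.68 in WT ST-HSC, far above the array medians. GMP were granulocyte-macrophage progenitors, in WT lineage-negative c-kit+ Sca-1- CD16/32hi CD34+ cells. The KI cells were a GMP-like population that the study describes as CD16/32hi with intermediate CD34, although its methods list only the CD34+ gate. The KI minus WT difference of Cd34 in GMP was -2.87 on the log2 scale (adjusted p = 6.98e-06), in a marker by which the study describes the gates as unlike. KI minus WT values in GMP therefore compare cells described with unlike CD34 gates, and the part of the gate in them was not tested. Cells were sorted as bulk, and a lower value from fewer cells of a type cannot be told apart from less RNA per cell.

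In T cells, Trat1 is a small transmembrane adapter that is coupled to the T cell receptor, Cd3e is a signaling chain of that receptor, and Gata3 specifies T helper cells and innate lymphoid cells. Cytotoxic T and NK cells store perforin (Prf1) and granzymes (Gzma, Gzmb) in secretory granules. Perforin opens the membrane of a target cell and granzymes are the proteases that enter it. Some of these genes are used outside T and NK cells: mast cells make granzyme B, and CD27, a receptor of the tumor necrosis factor family that binds CD70, is carried by multipotent progenitors as well as by T, B and NK cells. Il2rb encodes the receptor chain shared by IL-2 and IL-15.

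In KI cells, Gzmb was called higher and Cd27 lower, in ST-HSC and in GMP alike. Trat1 and Prf1 were called higher by 1 of 2 probe sets each in both populations. The other probe set of Trat1 also lay higher in KI, whereas that of Prf1 did not. Cd3e, Gata3, Gzma and Il2rb did not pass the test in either population. By leading probe sets, 2 of the 8 genes were called higher (Gzmb, Prf1) and 1 lower (Cd27) in each population. A call is an adjusted p under 0.05 in 1 limma fit over all 12 arrays, with Benjamini-Hochberg adjustment over all 45037 probe sets, and every adjusted p below is from that fit unless another is named. Among the 18193 genes with a leading probe set, 3.01% were called in ST-HSC (1.33% higher, 1.68% lower) and 2.59% in GMP (1.19% higher, 1.40% lower). With Trat1 read by its other probe set, 4 of the 8 genes were called in each population. That reading was added after the data were seen, and the study had tabled the probe set, so this count cannot be set against those shares. The median KI minus WT difference of the 8 genes was -0.04 in ST-HSC, where that of all genes was -0.02, and 0.37 in GMP, where that of all genes was -0.03. KI arrays lay wholly to one side of the WT arrays for 5 of the 8 genes in each population, against 22.0% of all genes in ST-HSC and 19.4% in GMP.

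The values are log2 values after RMA, so that a difference of 1 is a 2-fold change. The array medians were 5.00 to 5.10 in ST-HSC and 4.70 to 4.79 in GMP, without overlap, so levels were compared within a population and the values of the populations stand side by side only. Within a group the arrays correlated at 0.963 to 0.99. The arrays of WT replicates 1 and 3 of both populations had a high Xist value, an RNA made by female cells, of at least 10.67, whereas WT replicate 2 and every KI array had at most 3.78. For the members and the called genes named from the lists, the adjusted p without the high-Xist WT arrays or with Xist in the fit is therefore given where either ended the call. Without them 1 WT array was left per population, and its spread was taken to be that of the other groups.

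**Figure D1:**
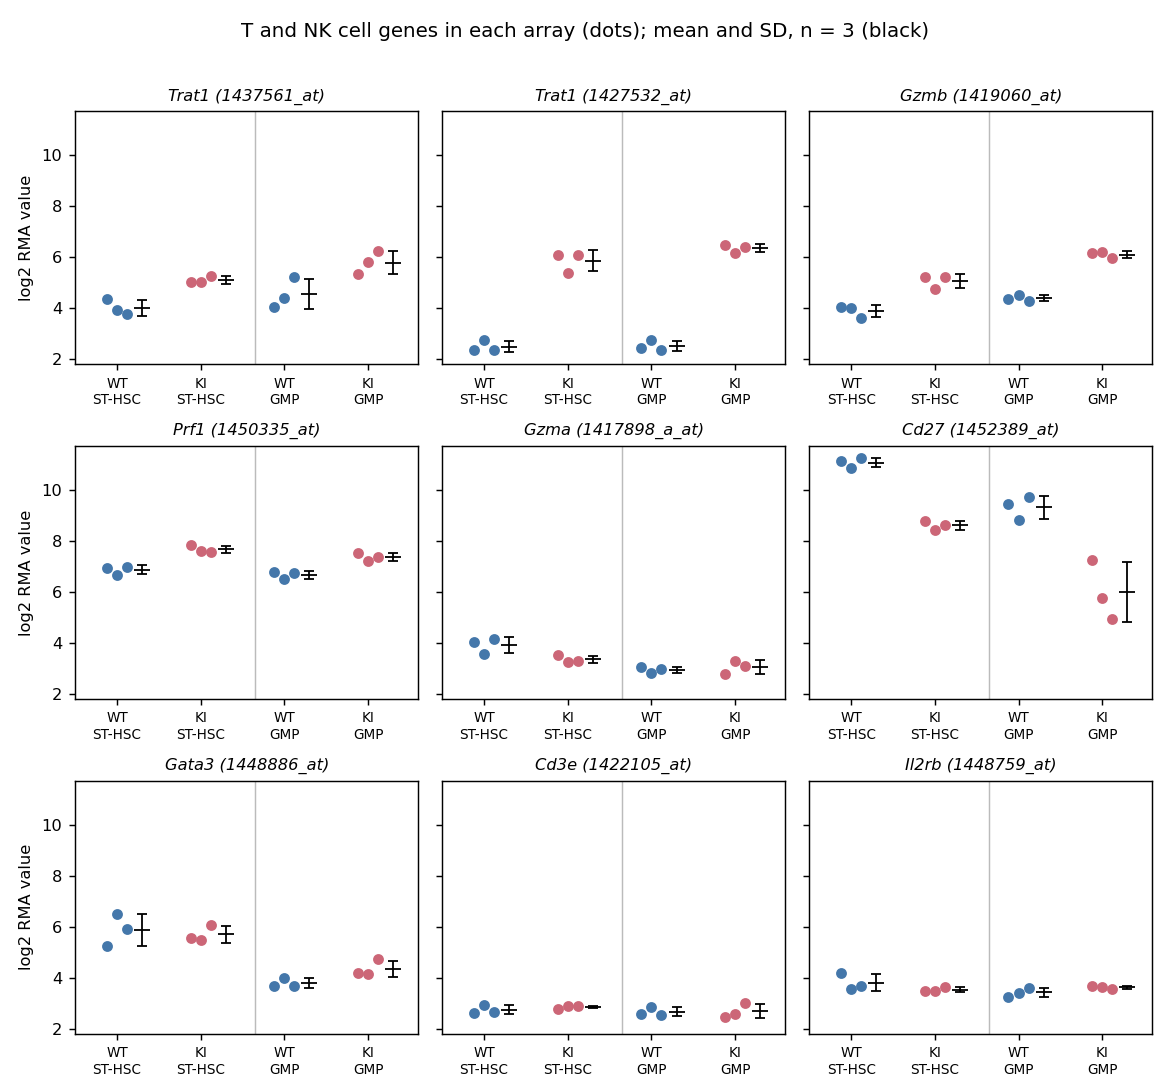
Log2 RMA value (y axis) of the 8 measured genes, with both probe sets of Trat1, in WT (blue) and KI (red) ST-HSC and GMP. Each dot is 1 array, the black bar is the mean with its SD (n = 3). The dots of Trat1 (both probe sets), Gzmb and Prf1 (leading probe set only) lie higher in KI and those of Cd27 lower, in both populations. Cd3e lies between 2.49 and 3.04 in all arrays.

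The letters upstream of the start site are shown for the 4 genes that were called by at least 1 probe set in both populations, because PU.1 binds GGAA cores and the AP-1 proteins bind TGANTCA. Each is the 250 bases before the start site of the gene from RefSeq on GRCm38.p6, written 5′ to 3′ on the gene's strand: Trat1 chr16:48772063-48772312 (minus strand), Gzmb chr14:56262335-56262584 (minus strand), Prf1 chr10:61297586-61297835 (plus strand) and Cd27 chr6:125237028-125237277 (minus strand). Capitals mark matches to GGAA (the ETS core), TGANTCA (AP-1) or GATAA (GATA factors), searched on both strands, so that a match on the opposite strand reads TTCC for GGAA.
Trat1: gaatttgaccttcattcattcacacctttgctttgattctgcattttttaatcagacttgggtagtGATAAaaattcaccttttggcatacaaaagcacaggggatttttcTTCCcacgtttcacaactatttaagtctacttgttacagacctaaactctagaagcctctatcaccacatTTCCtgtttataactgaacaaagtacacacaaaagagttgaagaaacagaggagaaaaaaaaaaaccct
Gzmb: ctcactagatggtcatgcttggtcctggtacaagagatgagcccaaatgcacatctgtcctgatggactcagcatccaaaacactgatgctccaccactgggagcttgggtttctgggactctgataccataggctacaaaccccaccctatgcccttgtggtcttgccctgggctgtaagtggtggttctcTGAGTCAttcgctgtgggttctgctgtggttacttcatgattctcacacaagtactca
Prf1: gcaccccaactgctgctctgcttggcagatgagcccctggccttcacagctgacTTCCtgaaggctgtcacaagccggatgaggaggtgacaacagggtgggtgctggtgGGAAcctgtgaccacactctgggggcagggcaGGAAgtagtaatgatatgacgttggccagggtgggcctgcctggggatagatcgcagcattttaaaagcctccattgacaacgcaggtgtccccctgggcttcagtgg
Cd27: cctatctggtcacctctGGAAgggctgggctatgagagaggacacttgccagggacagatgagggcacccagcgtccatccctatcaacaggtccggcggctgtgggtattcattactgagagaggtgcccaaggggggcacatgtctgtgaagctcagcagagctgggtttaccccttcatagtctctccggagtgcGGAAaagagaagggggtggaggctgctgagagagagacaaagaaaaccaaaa
The Trat1 window held 2 GGAA cores, both on the opposite strand, and 1 GATAA at -184 to -180 from the start site. The Gzmb window held no GGAA and 1 TGANTCA match, TGAGTCA, at -58 to -52. The Prf1 window held 3 GGAA cores and the Cd27 window 2, and neither held TGANTCA or GATAA. The longer GAGGAA, which contains the ETS core and is the form PU.1 prefers, occurred in none of the 4 windows. Of 32851 mouse promoters of the same length, 93.4% held GGAA, 23.3% GAGGAA, 6.75% TGANTCA and 22.6% GATAA. The Gzma window held 3 GGAA cores, that of Gata3 2 and that of Cd3e 5, of which 1 lay in a GAGGAA. A match is a string of letters and no measured binding site.

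The KI arrays of Trat1 lay above the WT arrays by both of its probe sets, which disagreed in size, and 1 of them was called. By the probe set 1427532_at, the KI ST-HSC arrays read 6.10, 5.39 and 6.09 and the WT ST-HSC arrays 2.37, 2.74 and 2.35. The KI GMP arrays read 6.50, 6.18 and 6.39 and the WT GMP arrays 2.44, 2.76 and 2.36. Every KI array was more than 2 log2 units above every WT array, and the WT values lay at the floor of the array, where only 1.18% to 6.08% of probe sets in ST-HSC and 2.29% to 10.0% in GMP were lower. The difference of the deposited values was 3.37 ± 0.212 (SE) on the log2 scale in ST-HSC (adjusted p = 3.56e-05) and 3.84 ± 0.212 in GMP (adjusted p = 9.52e-06). No fold is given against values at the floor. Both calls held under every alternative that was run, with an adjusted p of at most 0.00719 in ST-HSC and 0.00936 in GMP, and in SAM. The study tabled this probe set among the genes that differed in these samples, so its choice is not independent evidence of the direction.

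By the probe set 1437561_at, which had the higher mean and therefore led, the KI ST-HSC arrays read 5.03, 5.02 and 5.27 and the WT ST-HSC arrays 4.35, 3.92 and 3.77. The KI GMP arrays read 5.33, 5.81 and 6.24 and the WT GMP arrays 4.05, 4.41 and 5.21. The KI arrays lay above the WT arrays in both populations, but the highest WT GMP array (5.21) lay close under the lowest KI GMP array (5.33). The differences of 1.09 ± 0.308 in ST-HSC (95% interval 0.41 to 1.77, adjusted p = 0.121) and 1.23 ± 0.308 in GMP (0.55 to 1.92, adjusted p = 0.0732) did not pass the test. Across the 12 arrays, after the mean of each population was subtracted, the 2 probe sets correlated at r = 0.85, a value that shares the genotype contrast. The direction was the same by both. No measured neighbour of Trat1 on its chromosome was called: Morc1, Dppa2 and Dppa4 on the side of lower coordinates and Retnlb and Retnla on the other had differences from -0.32 to 0.14 (adjusted p of at least 0.521), and Retnlg had no probe set of its own.

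Gzmb, which encodes granzyme B, was higher in KI cells of both populations. Its probe set read 5.23, 4.77 and 5.24 in KI ST-HSC and 4.05, 4.02 and 3.62 in WT ST-HSC. In GMP it read 6.15, 6.20 and 5.97 in KI and 4.38, 4.53 and 4.30 in WT. The KI arrays lay apart from the WT arrays in both, and the spread within a group was smallest in GMP. In ST-HSC, 26.5% to 34.1% of probe sets were lower than Gzmb in WT arrays and 45% to 52.8% in KI arrays. In GMP these shares were 43.4% to 46.8% in WT and 64.5% to 66.5% in KI. Gzmb lay below the array median in 7 of 12 arrays, so the folds start from low signal. Neither expression filter kept the gene. The difference was 1.18 ± 0.171 in ST-HSC, a 2.26-fold change (adjusted p = 0.00503), and 1.71 ± 0.171 in GMP, a 3.26-fold change (adjusted p = 7.00e-04). Both calls held with each of the 12 arrays left out in turn. Without the high-Xist WT arrays the adjusted p was 0.0862 in ST-HSC and 0.0485 in GMP, and SAM called Gzmb in neither.

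Prf1, perforin, was higher in KI cells by its leading probe set 1450335_at. The arrays read 7.85, 7.61 and 7.56 in KI ST-HSC and 6.95, 6.67 and 7.0 in WT ST-HSC. In GMP they read 7.55, 7.22 and 7.39 in KI and 6.78, 6.51 and 6.75 in WT. The groups did not overlap, and the shift was similar in both populations, 0.80 ± 0.150 in ST-HSC (1.74-fold, adjusted p = 0.0201) and 0.71 ± 0.150 in GMP (1.63-fold, adjusted p = 0.041). The ST-HSC call was lost without KI replicate 1, 2 or 3 or WT replicate 2 of ST-HSC (adjusted p up to 0.0823), and the GMP call held in 2 of 12 fits with an array left out (adjusted p up to 0.112). Without the high-Xist WT arrays the adjusted p was 0.068 in ST-HSC and 0.15 in GMP, and with a trended and robust variance prior it was 0.085 and 0.121. The mean of both probe sets gave 0.36 in ST-HSC and 0.26 in GMP (adjusted p = 0.412 and 0.568). The other probe set, 1451862_a_at, read 3.77 to 5.19 over all arrays and did not pass the test, with differences of -0.08 in ST-HSC (95% interval -0.76 to 0.61) and -0.18 in GMP (-0.86 to 0.50). The 2 probe sets correlated at r = -0.26 over the 12 arrays within populations, so the higher Prf1 value rests on 1 of 2 probe sets.

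Gzma, which encodes granzyme A, did not pass the test. It read 3.52, 3.26 and 3.32 in KI ST-HSC and 4.04, 3.56 and 4.16 in WT ST-HSC. In GMP it read 2.78, 3.30 and 3.12 in KI and 3.06, 2.82 and 3.0 in WT. The ST-HSC arrays did not overlap and were the other way round from Gzmb, while the GMP arrays overlapped. The difference was -0.55 in ST-HSC (95% interval -0.96 to -0.14, adjusted p = 0.214) and 0.11 in GMP (-0.30 to 0.52, adjusted p = 0.878). All 12 values lay below their array's median.

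Cd27 fell in KI cells of both populations and was the only one of the 8 genes called lower. It read 8.80, 8.44 and 8.64 in KI ST-HSC and 11.13, 10.87 and 11.25 in WT ST-HSC. In GMP it read 7.28, 5.76 and 4.96 in KI and 9.44, 8.81 and 9.72 in WT. All KI arrays were below all WT arrays, and the KI GMP arrays were spread the most widely of any group of the 11 probe sets (SD 1.18). The difference was -2.45 ± 0.471 in ST-HSC (adjusted p = 0.023), a level 5.48 times as high in WT, and -3.32 ± 0.471 in GMP (adjusted p = 0.00589), 10.0 times as high in WT. The study also tabled Cd27 among its genes that differed in ST-HSC, which is not independent evidence of its direction. The ST-HSC call was lost without KI replicate 1, 2 or 3 or WT replicate 1 or 3 of ST-HSC (adjusted p up to 0.108), with Xist in the fit (0.115) and without the high-Xist WT arrays (0.214), while the fit of the 6 ST-HSC arrays alone gave 0.00262. The GMP call held with each array left out, and the adjusted p was 0.0929 in the 6 GMP arrays alone and 0.183 without the high-Xist WT arrays.

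Cd3e stayed at the bottom of the range, between 2.49 and 3.04 in all 12 arrays, where 4.69% to 16.6% of the probe sets of an array were lower. Its differences of 0.11 in ST-HSC (95% interval -0.27 to 0.48) and 0.03 in GMP (-0.34 to 0.40) did not pass the test (adjusted p = 0.875 and 0.966). Il2rb read 3.26 to 4.21 by its leading probe set, below the median of every array, with differences of -0.27 in ST-HSC (95% interval -0.66 to 0.11, adjusted p = 0.587) and 0.20 in GMP (-0.19 to 0.58, adjusted p = 0.704). Its check probe set gave -0.03 and 0.16.

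Gata3 read 5.56, 5.49 and 6.09 in KI ST-HSC and 5.25, 6.51 and 5.93 in WT ST-HSC, so the groups overlapped. In GMP it read 4.19, 4.14 and 4.73 in KI and 3.70, 4.02 and 3.69 in WT, without overlap. The difference was -0.19 in ST-HSC (95% interval -0.86 to 0.49, adjusted p = 0.88) and 0.55 in GMP (-0.12 to 1.22, adjusted p = 0.469). Neither passed the test.

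**Figure D2:**
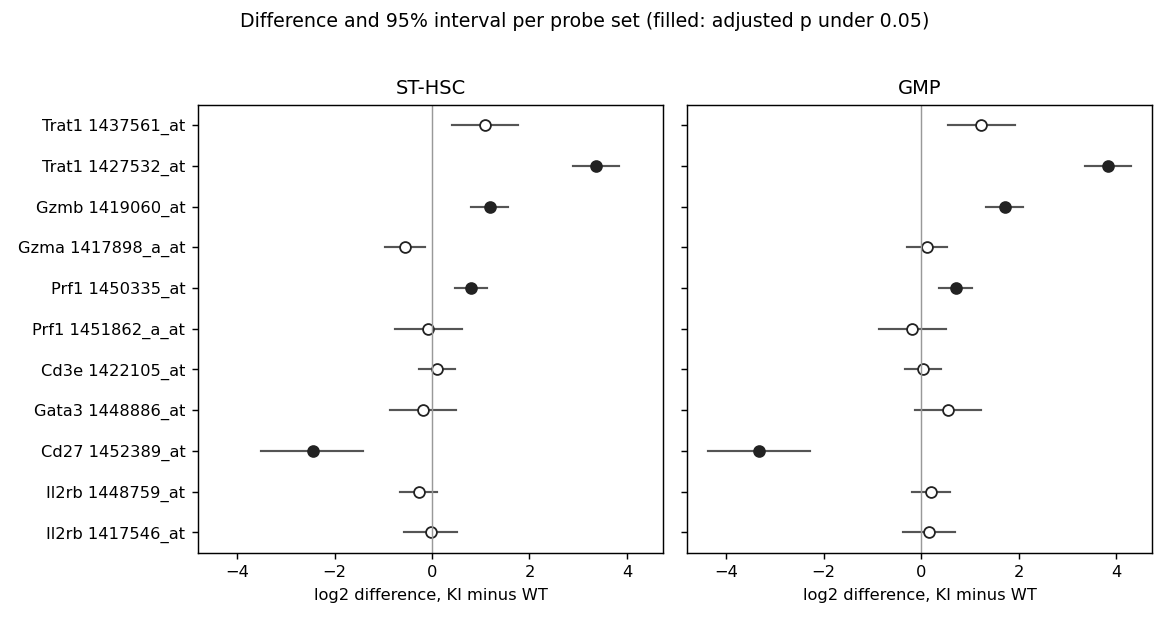
KI minus WT difference on the log2 scale (x axis) of each of the 11 probe sets (rows) in ST-HSC and GMP, with the 95% interval of the limma fit. Filled points have an adjusted p under 0.05: 1 of 2 probe sets of Trat1, Gzmb and 1 of 2 of Prf1 lie to the right of 0 and Cd27 to the left, in both panels.

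The KI minus WT difference was compared between GMP and ST-HSC in the same fit. By limma, 0 of the 8 genes were called, where 0.0495% of all genes were. At an unadjusted p under 0.05 in that fit, 1 of the 8 genes passed, where 8.45% of all genes did. It was Gzma, which differed by 0.66 (95% interval 0.07 to 1.24, adjusted p = 0.565). Gzmb differed by 0.53 (-0.01 to 1.06, adjusted p = 0.644), Cd27 by -0.87 (-2.34 to 0.60, adjusted p = 0.815), Prf1 by -0.10 (-0.57 to 0.37) and Trat1 by 0.47 (-0.20 to 1.13) for the probe set called in both. These intervals leave room for a difference between the populations in Cd27 of more than 2 log2 units. A single 3-against-3 comparison cannot go below p = 0.1 in an exact two-sided permutation test, and each called gene reached that smallest value in both populations.

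In all, 10 lists of 105 related genes, of which 97 were measured, were read beside these genes: the remaining receptor chains, the signaling proteins, early T lineage factors, granule genes, NK cell receptors, the IL-2 and IL-15 pathway, CD27 partners and the GATA, TCF/LEF and SRC families. In ST-HSC 2 of the 97 were called higher and 7 lower, with a median difference of -0.09. In GMP 3 were called higher and 1 lower, with a median of 0.10. The share of all genes called is given above. Most genes of each list did not pass the test. For the difference between the populations, 0 of the 97 were called by limma, where 0.0495% of all genes were. At an unadjusted p under 0.05 in that fit, 15 of 97 passed, where 8.45% of all genes did.

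Among the 13 T cell receptor and co-receptor chains, Cd3g, a CD3 chain beside Cd3e, rose in KI GMP from 4.31 to 6.54 (2.23, adjusted p = 0.00646), a call held with each array left out but not in the 6 GMP arrays alone (0.0695) or without the high-Xist WT arrays (0.10). Cd3d, another CD3 chain of the list, read 3.52 to 3.86 in all 4 groups. Cd247, a further receptor chain of the list, read 9.34 in KI and 9.41 in WT ST-HSC. In GMP it read 8.52 in KI and 9.24 in WT (-0.72, adjusted p = 0.128) and was not called. Cd28, the co-stimulatory receptor of T cells, fell in KI ST-HSC from 5.29 to 3.27 (-2.01, adjusted p = 0.00203), a call held with each array left out, with Xist in the fit and without the high-Xist WT arrays. The second probe set of Cd28 had a difference of -1.33 and was not called. Thy1, a surface marker of T cells and of some progenitors, fell in KI ST-HSC (-2.02, adjusted p = 0.0305), a call lost without any 1 of 5 arrays (adjusted p up to 0.111), with Xist in the fit (0.138) and without the high-Xist WT arrays (0.0512).

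Of the 9 measured kinases and adapters of T cell signaling, Lat, the scaffold phosphorylated downstream of the T cell receptor, and Fyn, a SRC family kinase, rose in KI GMP. The Lat value was 7.96 in KI and 5.92 in WT GMP (2.03, adjusted p = 0.0158) and the Fyn value 9.06 and 7.56 (1.5, adjusted p = 0.0198). Without KI GMP replicate 3 or WT GMP replicate 3 both calls were lost (adjusted p up to 0.0612 for Lat and 0.0677 for Fyn), that of Fyn also without WT GMP replicate 1, and the second Fyn probe set had a difference of 0.56 and was not called. Both calls were also lost with Xist in the fit (adjusted p = 0.0878 for Lat and 0.103 for Fyn) and without the high-Xist WT arrays (0.227 and 0.132). In ST-HSC Lat differed by 1.21 (adjusted p = 0.132) and Fyn by -0.03 (adjusted p = 0.978). The 4 measured transmembrane adapters related to Trat1 (Sit1, Lax1, Pag1 and Lat2) included none that was called: their differences ran from -0.22 to 0.65 in ST-HSC and from -1.53 (Pag1, adjusted p = 0.163) to 0.66 in GMP.

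Of 14 granule genes other than the members, 1 was called. Nkg7, a membrane protein of cytotoxic granules, rose in KI ST-HSC from 8.33 to 9.95 (1.62, adjusted p = 0.00301), a call held with each array left out and without the high-Xist WT arrays. In GMP it read 10.84 in KI and 10.14 in WT (0.69, adjusted p = 0.145). The granule proteoglycan gene Srgn and the granzyme-activating protease gene Ctsc did not pass the test in either population, nor did Gzmk (0.10 and -0.08).

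Of 17 measured NK cell receptors and transcription factors, 3 fell in KI ST-HSC and none was called in GMP. Klrd1, the CD94 chain of inhibitory and activating NK receptors, fell from 5.57 to 3.10 (-2.47, adjusted p = 0.0061), a call held with each array left out and with Xist in the fit. Klrk1, the NKG2D receptor, fell from 6.54 to 3.36 (-3.18, adjusted p = 0.038), a call that held in 3 of 12 fits with an array left out and was lost with Xist in the fit (0.165) and without the high-Xist WT arrays (0.114). Id2, an inhibitor of E proteins needed for NK and innate lymphoid cells, fell from 9.79 to 5.94 (-3.85, adjusted p = 0.0117), a call lost without KI ST-HSC replicate 2 (0.0643) and with Xist in the fit (0.0738). So in ST-HSC these 3 NK cell genes were called lower in KI while Gzmb, Nkg7 and, by its leading probe set, Prf1 were called higher. The other 14 genes of the list were not called there and went both ways, from -0.50 (Cd226) to 1.97 (Zbtb16, adjusted p = 0.142). The median difference of the list was -0.15 in ST-HSC.

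Among early T lineage factors, Satb1, a chromatin organizer, fell in KI ST-HSC (-1.10, adjusted p = 0.00347, 2 of its 5 probe sets called), with an adjusted p of 0.0705 without the high-Xist WT arrays. Among the GATA and TCF/LEF families, Gata2, a factor of stem, mast and basophil cells, rose in KI ST-HSC (1.86, adjusted p = 0.0325), a call held in 6 of 12 fits with an array left out and lost with Xist in the fit (0.0815). Among 9 CD27 partners and related receptors, Tnfrsf13b, the TACI receptor of B cells, fell in ST-HSC (-2.56, adjusted p = 0.002) and GMP (-2.15, adjusted p = 0.00737), as Cd27 did, with an adjusted p without the high-Xist WT arrays of 0.0584 and 0.122. Cd70, which encodes the CD27 ligand, read 3.24 to 3.46 in all 4 groups and did not pass the test. No gene of the IL-2 and IL-15 pathway or of the remaining SRC family kinases was called. Without the high-Xist WT arrays, which left 1 WT array per population, the median difference of the 97 genes was 0.02 in ST-HSC and 0.02 in GMP.

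**Figure D3:**
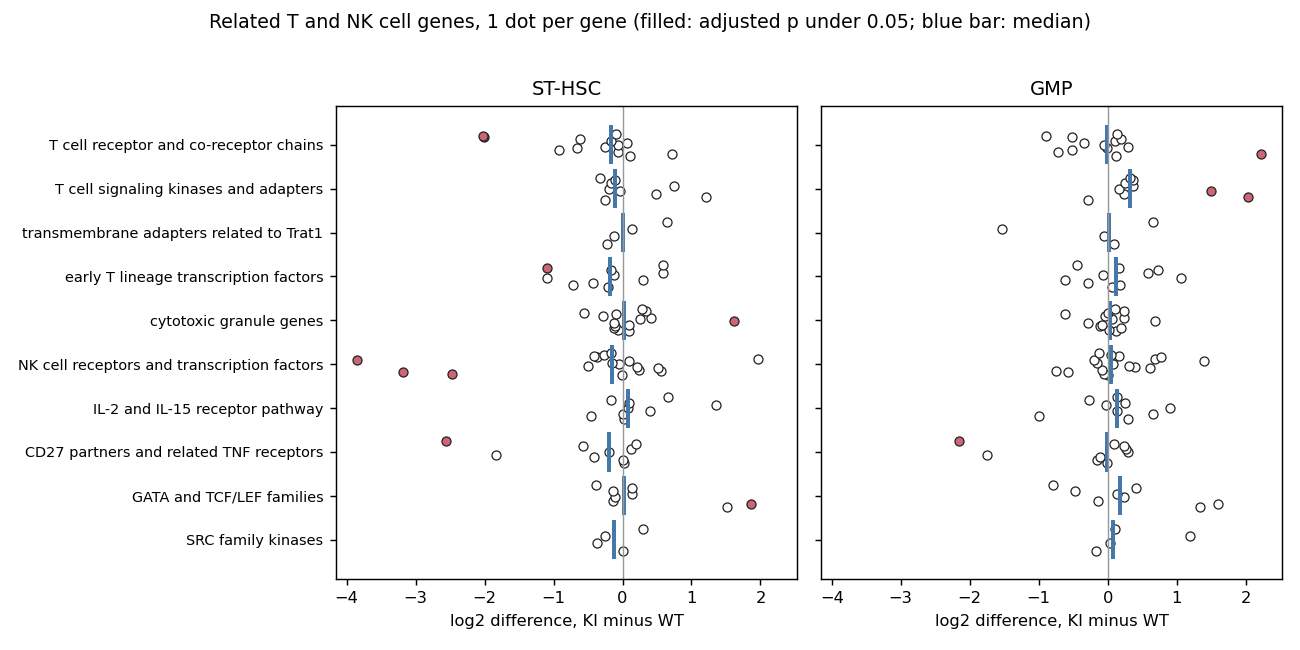
KI minus WT difference on the log2 scale (x axis) of 97 genes related to the T and NK cell genes, by list (rows), in ST-HSC and GMP. Each dot is the leading probe set of 1 gene and is filled for an adjusted p under 0.05, and the blue bar is the median of the list; most dots are open, and the filled ones lie mainly to the left in ST-HSC and to the right in GMP.

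Markers of cell types the gates could hold were read in each array as the mean log2 value over a list and as the log2 of the summed unlogged values, which follows the brightest genes. The 8 measured T cell markers averaged 5.08 to 5.26 in KI and 5.61 to 5.99 in WT ST-HSC, and 4.83 to 5.18 in KI and 4.95 to 5.17 in WT GMP. Their summed level was likewise lower in KI ST-HSC (9.62 to 9.81 against 9.94 to 10.11) and overlapped in GMP (9.01 to 9.56 against 9.51 to 9.74). Within this list Cd28 and Thy1 were called lower in KI ST-HSC and Cd3g higher in KI GMP.

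The 6 NK cell markers gave opposite orders by the mean and the sum. They averaged 4.39 to 4.65 in KI and 4.96 to 5.30 in WT ST-HSC, and 4.27 to 4.43 in KI and 4.18 to 4.50 in WT GMP. Their summed level was higher in KI without overlap, at 9.83 to 10.25 against 8.95 to 9.40 in ST-HSC and 10.71 to 10.98 against 9.75 to 10.44 in GMP. Klrd1 and Klrk1 were called lower and Nkg7 higher in KI ST-HSC, and the median difference of the list was -0.03 in both populations. Within the T and NK cell lists, Cd3d, Ncr1 (an NK cell receptor) and Eomes (an NK cell factor) read between 2.98 and 4.07 as group means. These lay below the array medians in every group, and none of these genes was called. Other genes of the lists read higher, Cd247 at 8.52 to 9.41 and Nkg7 at 8.33 to 10.84 as group means, and Cd3g at 6.54 in KI GMP.

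The 8 mast cell and basophil markers averaged 7.64 to 7.99 in KI and 6.24 to 7.66 in WT ST-HSC, which overlap by WT replicate 2, with 4 called higher and none lower, and their summed level did not overlap (12.59 to 12.77 against 9.98 to 11.51). In GMP they averaged 7.98 to 8.91 in KI and 7.79 to 8.39 in WT, with a summed level of 13.38 to 13.76 against 12.29 to 13.26, and 2 were called higher and 1 lower. Cpa3, the mast cell carboxypeptidase, was higher by 2.69 in KI ST-HSC (adjusted p = 6.20e-04) and by 1.57 in KI GMP (adjusted p = 0.0157, or 0.0877 with Xist in the fit). Ms4a2, an IgE receptor chain, had a log2 difference of -5.21 in KI GMP (adjusted p = 0.0106, or 0.0787 without the high-Xist WT arrays).

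The 5 markers of group 2 innate lymphoid cells averaged 5.36 to 5.77 in KI and 4.81 to 5.01 in WT ST-HSC, and 5.81 to 6.26 in KI and 4.78 to 5.40 in WT GMP. Of them Rora was called higher in GMP (3.17, adjusted p = 0.0334), a call held in 5 of 12 fits with an array left out. It was lost with Xist in the fit (0.0998) and without the high-Xist WT arrays. Of the 9 probe sets of Rora, 4 were called higher in GMP, and those beside the leading one differed by -0.08 to 4.32. Il5 and Il13 of the list read 3.28 to 4.02 as group means and did not pass the test in either population. The 6 B cell markers averaged 4.81 to 4.92 in KI and 5.95 to 7.54 in WT ST-HSC, and overlapped in GMP (4.85 to 5.40 against 5.23 to 5.92). Their median difference in GMP was -0.08, and their summed level there did not overlap (7.67 to 8.58 against 9.20 to 9.84). Of them Cd79b was called lower in ST-HSC (-2.29, adjusted p = 0.0189) and in GMP (-2.12, adjusted p = 0.0321). Its ST-HSC call held in 7 of 12 fits with an array left out and its GMP call in 4 of 12. Both were lost with Xist in the fit (0.104 and 0.144). Vpreb1 was called lower in ST-HSC (-4.21, adjusted p = 0.0421), a call held in 4 of 12 fits with an array left out.

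The 5 erythroid markers averaged higher in KI, 6.41 to 7.0 against 5.35 to 5.56 in ST-HSC and 5.92 to 6.36 against 4.46 to 5.21 in GMP. In ST-HSC Car1, a red cell carbonic anhydrase, was called higher (3.32, adjusted p = 0.00856). Klf1 (2.58) and Epor (1.45) were higher there without a call, while Slc4a1 (-0.86) and Hba-a1 (-0.21) went the other way. In GMP none of the 5 was called. The 4 hepatocyte markers averaged 5.73 to 5.86 in KI and 6.50 to 7.60 in WT ST-HSC, and overlapped in GMP (4.77 to 5.70 against 5.44 to 7.08). Of them Afp was called lower in ST-HSC (-1.53, adjusted p = 0.00582) and in GMP (-1.92, adjusted p = 0.0021), by 1 of its 5 probe sets. Its GMP call was lost without the high-Xist WT arrays. The 7 stem and early progenitor markers averaged lower in KI, 8.76 to 9.05 against 9.13 to 9.33 in ST-HSC and 6.0 to 6.48 against 7.01 to 7.12 in GMP. Among them the cytokine receptor gene Flt3 (-2.69, adjusted p = 0.0215, or 0.112 with Xist in the fit) and Cd34 (-1.41, adjusted p = 0.00103) were called lower in ST-HSC. Slamf1, which encodes CD150, was called higher there (1.92, adjusted p = 0.00132). The part of these markers in the values of Trat1, Gzmb, Prf1 and Cd27 was not tested.

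**Figure D4:**
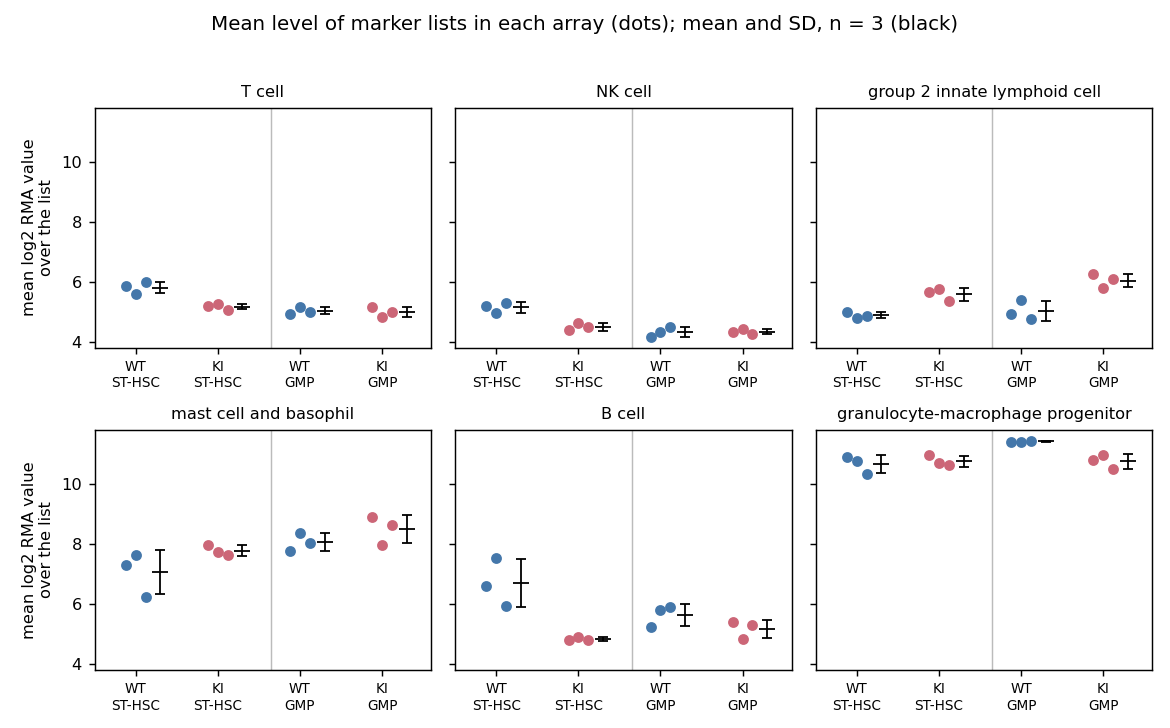
Mean log2 RMA value (y axis) over the measured genes of 6 marker lists in WT (blue) and KI (red) ST-HSC and GMP. Each dot is 1 array, the black bar is the mean with its SD (n = 3). By this mean the T and NK cell lists lie lower in KI ST-HSC and overlap in GMP. The list of group 2 innate lymphoid cells lies higher in KI arrays of both populations. The granulocyte-macrophage progenitor list overlaps in ST-HSC and lies lower in KI GMP.

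The 3 genes whose values followed each called gene most closely over the 12 arrays, after the mean of each population was subtracted, are a description, since the points share the genotype contrast. Gzmb was closest to Cercam (r = 0.968), Trbv13-2 (r = 0.968) and Sytl2 (r = 0.966). Trbv13-2 is a variable segment of the T cell receptor beta chain and Sytl2 a protein of granule and vesicle transport, and their differences were 1.32 and 2.96 in ST-HSC and 1.93 and 4.16 in GMP. Prf1 was closest to Csf2rb (r = 0.975), the shared receptor chain of IL-3, IL-5 and GM-CSF, followed by Sptbn1 (r = 0.956) and Sdc2 (r = 0.946). The Csf2rb difference was 1.72 in ST-HSC and 1.90 in GMP. Cd27 was closest to Ptprc (r = 0.983), the CD45 phosphatase of blood cells, whose differences were -2.62 in ST-HSC and -4.16 in GMP, followed by Macroh2a1 (r = 0.976) and Khk (r = 0.973).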

How the data were processed

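RNA of 3 sorted samples per group was amplified linearly from 10 ng, biotin-labeled and hybridized by the authors to 12 Affymetrix MG430 v2 arrays. The deposited values are log2 values that the authors made by RMA, which corrects background, aligns array distributions by quantiles and combines the probes of a set; small changes at low signal come out compressed. For the RMA version, the sources used here give none. ST-HSC and GMP arrays have separate medians, so no common scaling joins the populations. Arrays were grouped by the titles of the sample records. There is no read depth in array signals, so precision is limited by the number of arrays. Nothing states whether the 3 samples of a group came from separate animals, so p-values measure only how these samples scatter, which may be technical variation.

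Of 45101 probe sets, 64 controls were left out and 45037 were tested, low values included. The platform annotation, which can be old, gives 1 symbol to 34945 of them, several to 932 and none to 9160. A gene was read by its probe set of highest mean over 12 arrays (18193 genes). Differences came from limma 3.58.1 under R 4.3.3 (functions lmFit, contrasts.fit and eBayes; 4 group means, 8 residual and 2.52 prior degrees of freedom), adjusted by Benjamini-Hochberg, with 95% intervals unadjusted. The fit was tested on simulated data. Neighbours and promoters came from RefSeq on GRCm38.p6, and 7 of the 8 measured genes had a promoter entry.

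The genes and lists were chosen with earlier results of these data known. Named genes are the listed members, the 3 genes most correlated with each called member, the 3 protein-coding neighbours on each side of Trat1, and up to 4 genes per list with the smallest adjusted p; further list genes and markers were named after their values were seen. Tried instead were the 6 arrays of a population alone, array medians subtracted, quantile normalization within a population, a filter (log2 of at least 6 in 3 or more arrays) and another (mean over that of the median probe set), eBayes with trend and robust, SAM over all 20 relabelings with a median of 0 false calls, a log2 limit of 2, a replicate block, the mean over all probe sets of a gene, the Xist level as a covariate, dropping the WT arrays with Xist above a log2 of 8, and dropping each array in turn. Reading Trat1 by its dimmer probe set was added after seeing the data.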

Additional observations from a re-analysis of the deposited data

How the results depend on the processing

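In the fit reported, 3 of the 8 genes were called in each population and none for the difference between the populations, beside 996, 959 and 22 probe sets in ST-HSC, GMP and the difference. The 6 arrays of a population alone gave 1 gene and 246 probe sets in GMP. SAM gave 1 gene and 162 probe sets in ST-HSC and 0 genes and 43 probe sets in GMP. A limit of 2 on the log2 difference left 1 gene in each population and 426, 319 and 14 probe sets. A mean above the median probe set gave 7 probe sets for the difference. Xist as a covariate gave 607 probe sets in GMP, and dropping the high-Xist WT arrays gave 0 genes in ST-HSC, 1 gene and 449 probe sets in GMP and 114 probe sets for the difference. With the replicate block 1 gene was called in ST-HSC, beside 617 probe sets there, 468 in GMP and 1 for the difference; same-numbered KI and WT arrays deviated with r of -0.04 to 0.07, so replicate numbers did not count as pairs. The cause of these changes was not tested, apart from the smaller number of arrays or probe sets that an alternative itself brings.

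With each array left out in turn, 1 to 3 genes were called in ST-HSC, 2 to 3 in GMP and 0 for the difference, beside 491 to 1039, 548 to 1093 and 7 to 59 probe sets. The ST-HSC count fell to 491 without KI ST-HSC replicate 2 and to 573 without KI ST-HSC replicate 3. The GMP count fell to 548 without KI ST-HSC replicate 2, 555 without KI GMP replicate 3, 553 without WT GMP replicate 1 and 594 without WT GMP replicate 3. The sign turned only for differences that were not called. For Cd3e these were -0.11 with Xist as a covariate and -0.10 without the high-Xist WT arrays in ST-HSC, and 0.00 with array medians subtracted, -0.18 with Xist as a covariate, -0.17 without the high-Xist WT arrays and -0.13 to 0.14 with 1 array left out in GMP (below 0 at -0.13, -0.03 and -0.01). With 1 array left out, Gata3 in ST-HSC ran from -0.51 to 0.12 (without WT replicate 2) and Gzma in GMP from -0.01 (without KI replicate 2) to 0.25. For the difference between the populations, leaving out 1 array gave -0.11 to 0.47 for Trat1 (below 0 also at -0.02 and -0.08), up to 0.01 for Prf1 and -0.24 to 0.04 for Cd3e (above 0 also at 0.03). Trat1 by its dimmer probe set kept its call in both populations under all 22 alternatives run. All values rest on 3 arrays per group, low values near the array floor carry no order, and no detection calls were used.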
